A study of Mus musculus with 5 samples.

Results

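The wells described here were the 63 of 96 wells of a single Neuro2A plate that held at least 10000 reads on genes, divided at the median of a score of neuronal transcripts. Both sets were chosen by that score alone, the summed share of a well's gene reads on Elavl2, Chgb, Snap25, Stmn2 and Insm1, so the levels of these genes are no finding. The 31 wells above the median are called high-score wells, and the 32 wells at or below it low-score wells. The series holds 480 wells with reads on 5 plates, 1 sorted cell per well, and 272 wells reached 10000 gene reads. Besides Neuro2A, 3 plates held ES R1 cells (mouse embryonic stem cells) and 1 held mouse embryonic fibroblasts (MEF). Neuro2A is an established line from a mouse neuroblastoma, a tumour of sympathetic nerve precursors. It was grown in serum-containing medium, and the labels name no treatment. There was 1 Neuro2A plate, its 96 reactions were pooled before PCR, and cells of a plate are not replicates, so the 2 sets are compared by effect size and no p-value is given.

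The genes of the score mark separate steps of neuronal and neuroendocrine life. Elavl2 encodes a neuronal RNA-binding protein of the Hu family, Chgb the granin chromogranin B of dense-core secretory granules, Snap25 a SNARE protein of vesicle fusion, Stmn2 a microtubule-destabilising stathmin of growing axons, and Insm1 a zinc-finger transcription factor of neuroendocrine precursors. Neuroblastoma cells keep a sympathoadrenal programme while they divide, and they can mature towards neuron-like cells in culture. Immediate early genes such as Fos and Jun are transcribed within minutes of a stimulus.

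Reads of the score genes are first given over all 63 wells together, beside the other plates. These genes also divided the wells into sets, so the shares do not show that each set matched the plate's label. After each well had been thinned at random to 10000 gene reads, Chgb was read in 49.2% of the 63 Neuro2A wells (exact binomial 95% interval 36.4 to 62.1%), in 0% and 2.86% of the wells of ES replicates 1 and 3, and in 13.2% of the MEF wells. Snap25 was read in 22.2% of Neuro2A wells (12.7 to 34.5%), against 0% and 1.43% in those ES plates and 0% in MEF, and Insm1 in 22.2%, against 0% in both ES plates and 3.77% in MEF. Elavl2 was read in 34.9% of Neuro2A wells, in 8.33% and 7.14% in the ES plates and in 1.89% in MEF. Stmn2 stood apart from these, with reads in 55.6% of Neuro2A wells but also in 38.1% and 55.7% of the ES wells and 28.3% of the MEF wells. ES replicate 2 had only 2 wells of 10000 reads. The intervals cover counting error only, since PCR reads without molecular identifiers are not independent molecules.

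Gata2, a transcription factor of sympathetic precursors that was not in the score, was read in 39.7% of Neuro2A wells, against 17.0% of MEF wells and at most 2.86% of the wells of ES replicates 1 and 3. Sox2, a pluripotency factor, was read in 0 of the 63 wells, with an exact binomial upper limit of 5.69%. Of the fibroblast markers, the collagen gene Col1a1 was read in 4 wells, 2 in each set. The whole fibroblast list (12 genes, 9 of them with reads) summed to 181 thinned reads in high-score wells and 143 in low-score wells, with 0 to 20 and 0 to 47 reads per well, and Fn1 (fibronectin) supplied 147 and 73 of these. Col1a2, Col3a1, Thbs1 and Twist1 were at 0 reads in high-score wells, against at most 4 reads each in low-score wells. In both sets most reads beyond those of Fn1 therefore lay on other members of the list, which are not named here. The ES list gave 0 reads in high-score wells and 1 in low-score wells, the erythroid list 3 and 0 reads, and the macrophage, endothelial and glial lists none in either set.

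The values that chose the wells are given as a description. The score was 6.998 reads per 10000 gene reads in the lowest high-score well, 14.1 at the median and 183 in the highest. In low-score wells it ran from 0, in 10 wells, over a median of 0.801 to 6.69 reads per 10000. Just inside and just outside the division stood wells of 6.998, 6.69 and 6.09 reads per 10000, so there was no gap in the score at the median.

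**Figure D1:**
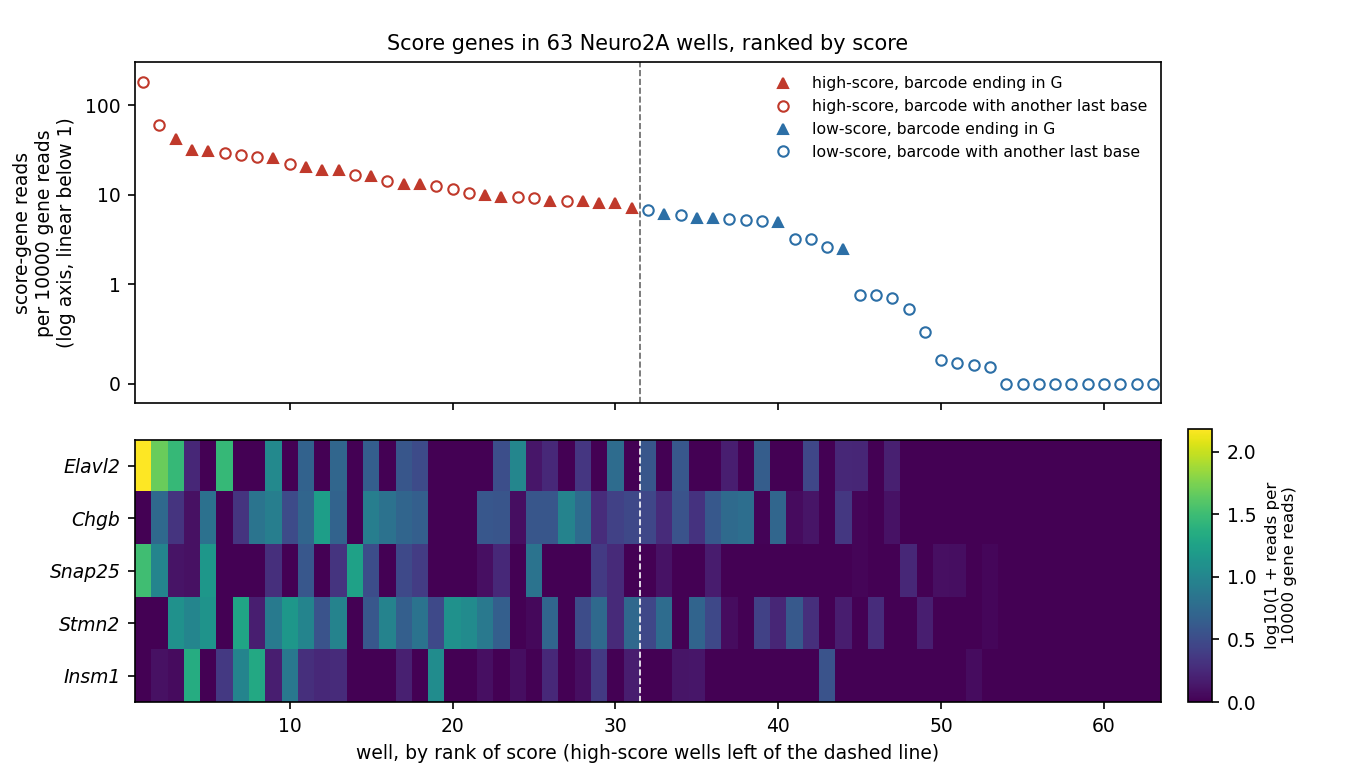
Score-gene reads per 10000 gene reads (upper panel, log axis that is linear below 1) and log10(1 + reads per 10000) of each score gene (lower panel) in the 63 wells ranked by score, with the 31 high-score wells left of the dashed line and triangles for barcodes ending in G. The score ran from 183 to 0 without a break at the line, and most wells owed it to 1 or a few genes.

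The score was uneven between genes and between wells. Over all their reads, the 63 wells held 1506 reads of Elavl2, 36.9% of all score reads, 1035 of Stmn2 (25.3%), 661 of Chgb (16.2%), 508 of Insm1 (12.4%) and 376 of Snap25 (9.20%). A single well held 25.9% of the Elavl2 reads and another 33.3% of the Insm1 reads. The counts of Elavl2 were whole multiples of 3 in every well of all 5 plates, and those of the other 4 score genes had no common divisor above 1. One gene supplied over 50% of the score in 22 of the 31 high-score wells and in 18 of the 22 low-score wells with any score read. The score gene with most reads was Stmn2 in 13 high-score wells, Elavl2 in 7, Chgb in 5, and Snap25 and Insm1 in 3 each. Stmn2, which was also read in many ES and MEF wells, thus led the score most often. All 5 genes were read in 6 high-score wells and in 0 low-score wells, and a single gene in 4 and 8 wells.

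The well of highest score, at 183 reads per 10000, had 324 reads of Elavl2 and 68 of Snap25 and no read of the other score genes. The next well, at 60.6, had 390 Elavl2, 72 Snap25 and 38 Chgb reads. The third, at 41.3, had 366 Elavl2 and 153 Stmn2 reads, and the fourth, at 31.8, had 169 Insm1 and 70 Stmn2 reads. At the thinned depth, Elavl2 had 317 reads in 15 high-score wells against 13 in 7 low-score wells, Chgb 98 reads in 22 wells against 29 in 9, Stmn2 162 in 24 against 25 in 11, Insm1 87 in 12 against 4 in 2, and Snap25 89 in 14 against 0.

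Between score genes, the rank correlation of their reads per 10000 gene reads over the 63 wells was positive in 10 of 10 pairs, with a median Spearman rho of 0.26 and a range of 0.01 to 0.47. These wells share a library and a barcode structure, and the values are given as a description. Over the 41 wells whose barcode did not end in G, treated separately for the reason given next, the median rho was 0.14, the range -0.26 to 0.38, and 6 of 10 pairs were positive.

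The wells differed by barcode. Per the labels' protocols, the template-switching oligo carried a 5-base barcode directly before its terminal riboguanines, so a barcode ending in G lengthens that run of guanines. The constant stem of the oligo and the barcodes of the 5 wells of highest score, with the last base in capitals, are shown because the last base separated the wells.
oligo stem before the barcode: aagcagtggtatcaacgcagagtggatgct
barcode of the well ranked 1: gacaA
barcode of the well ranked 2: gagaT
barcode of the well ranked 3: gataG
barcode of the well ranked 4: gaatG
barcode of the well ranked 5: gctcG

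Of the 63 wells, 22 had a barcode ending in G, and 17 of them were high-score and 5 low-score wells, which is 54.8% of the high-score and 15.6% of the low-score wells. At 10000 gene reads, wells with a final G had a median of 2509.5 genes with a read (1239 to 2957) and the other 41 wells 895 (464 to 1894). Before thinning, all 22 had reads of both Chgb and Stmn2, against 17 and 16 of the other 41 wells. At the thinned depth Chgb was read in 86.4% of the wells with a final G and 29.3% of the others, and Stmn2 in 100% and 31.7%. The same last base went with more genes on 3 of the other 4 plates: the medians at 10000 reads were 2181 with a final G and 866 without in ES replicate 1, 3161 and 1754 in ES replicate 3, and 2547.5 and 1357 in MEF. In ES replicate 2, with 1 well of each kind, the well with a final G had 3617 genes and the other 4588. The same 96 barcodes were used on all 5 plates.

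High-score wells also held more genes. The number of genes at 10000 reads was 537, 2061 and 2957 (lowest, median, highest) in high-score wells and 464, 889 and 2876 in low-score wells. Gene reads per well before thinning had medians of 50065 and 30961.5, repeats took a median of 26.9% and 20.3% of a well's reads, and mitochondrial genes 11.1% and 13.5%. The correlation of a well's log2(reads + 1) with the mean of the other wells had medians of 0.558 and 0.370. The part of the last base, of the number of genes and of the repeat share in the gene differences below was not tested, and the main differences are given also for the 41 wells without a final G, divided at their own median into 20 high-score and 21 low-score wells. In these the medians of genes at 10000 reads were 1032.5 in high-score wells and 722 in low-score wells.

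**Figure D2:**
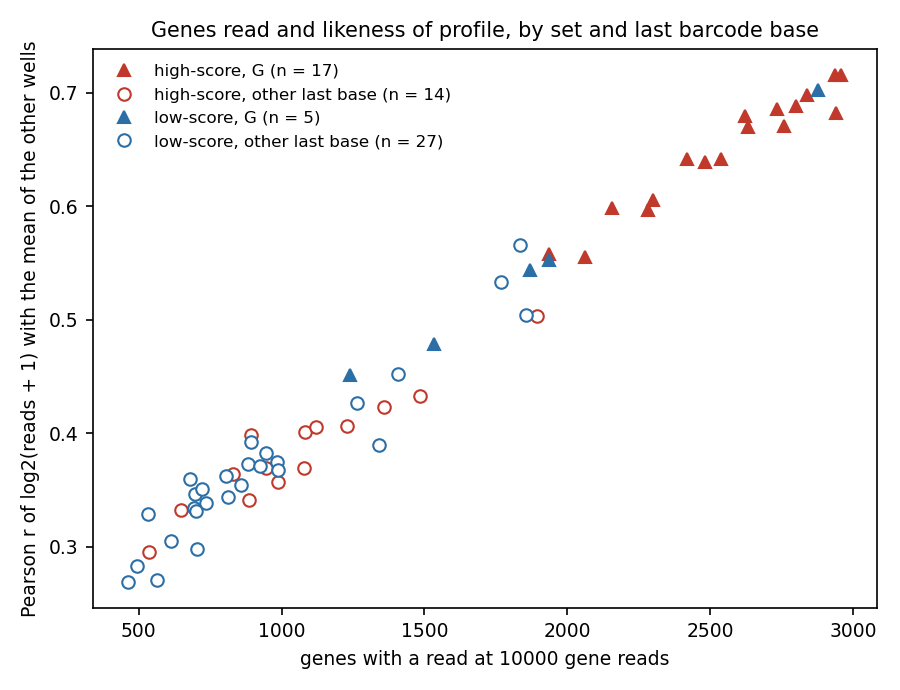
Pearson correlation of each well's log2(reads + 1) with the mean of the other wells against the number of genes read at 10000 gene reads, for 31 high-score wells and 32 low-score wells, with triangles for barcodes ending in G. The wells with a final G lie at the right, with a median of 2509.5 genes against 895 in the others, and 17 of the 22 are high-score wells.

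Outside the score genes, 2408 genes had a mean of at least 100 CPM (reads scaled to a total of 1000000 gene reads, at the thinned depth) and reads in at least 5 wells. Of these, 478 (19.9%) were 2-fold or more higher in high-score wells and 515 (21.4%) 2-fold or more lower, with a median log2 ratio of 0.00. Ratios are those of the mean CPM + 10. Without the wells of a final G, 525 of 1988 genes (26.4%) were 2-fold or more higher and 517 (26%) lower. These 2 comparisons share wells. With only the 22 wells of a final G, divided at their own median into 11 and 11, 546 of 2416 genes were higher (22.6%) and 562 lower (23.3%). The wells with and without a final G have no well in common. Their lists had 86 higher genes in common (16.4% and 15.8% of the lists) and 75 lower genes (14.5% and 13.3%). These shares were below those called among all genes, 22.6% higher and 23.3% lower with a final G, 26.4% and 26% without. The overlap thus showed no agreement between the lists beyond those shares. The number of genes counted in both comparisons is not given here, so the overlap of unrelated lists was not tested. The gene groups below are to be read against the shares called among all genes, which were between 19.9% and 26.4% each way.

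Many of these ratios rested on single wells. The well with most reads of a gene held over 50% of the reads of the higher set for 153 of the 478 higher genes (32.0%) and for 320 of the 515 lower genes (62.1%). With the top well of each set left out for each gene, 199 of the higher genes (41.6%) and 148 of the lower genes (28.7%) were again 2-fold or more apart in that direction. The share of wells with a read went mostly one way: 2266 of the 2408 genes (94.1%) were read in a larger share of high-score wells, and without a final G 1509 of 1988 (75.9%).

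**Figure D3:**
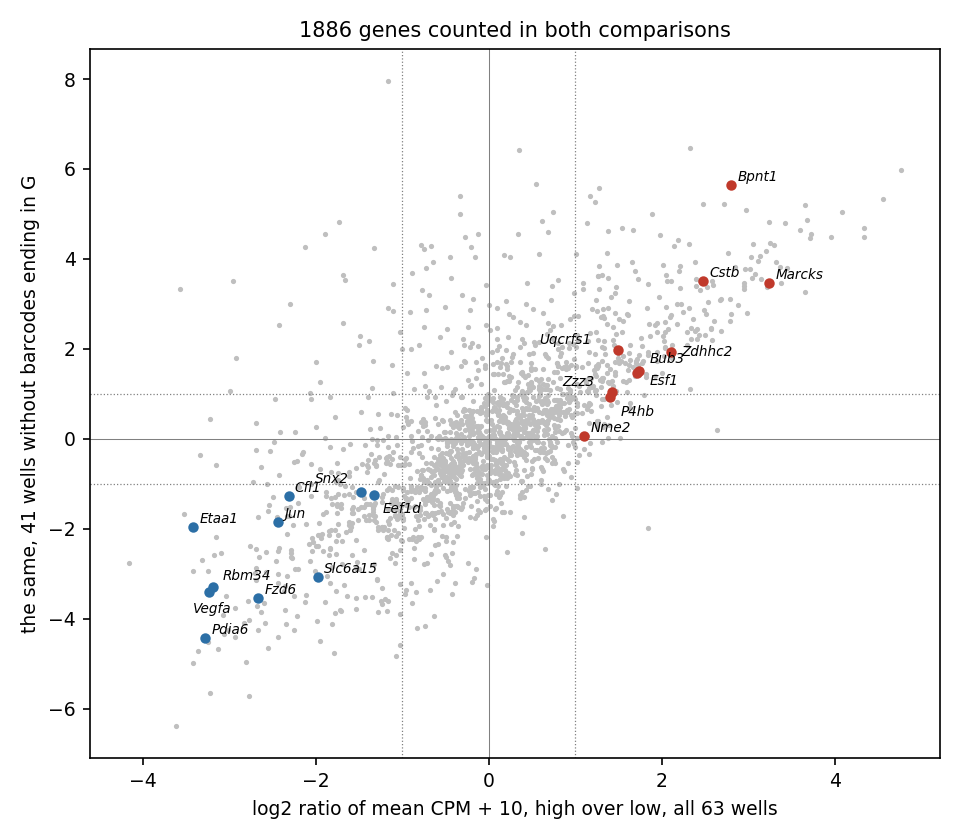
Log2 ratio of mean CPM + 10, high-score over low-score wells, with all 63 wells (horizontal axis) and with the 41 wells whose barcode does not end in G (vertical axis), for the 1886 genes counted in both; dotted lines mark 2-fold. The 20 named genes among them are coloured, red for higher and blue for lower, and Nme2 is the one that lies near 0 on the vertical axis, at 0.06.

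The genes named next were the 12 each way with the largest difference in the share of wells with a read, among genes 2-fold or more apart in the same direction. These differences were unlike in size. High minus low, they ran from 49.2 to 42.9 percentage points for the higher genes, but from -33.7 to -8.97 for the lower genes. Marcks, a myristoylated actin- and membrane-binding substrate of protein kinase C in growing neurites, had 136 thinned reads in 19 high-score wells against 12 reads in 4 low-score wells, with up to 39 reads in a high-score well and up to 4 in a low-score well. Its log2 ratio was 3.24, 3.47 without a final G and 1.95 in the wells with a final G. Marcks was the one gene of the 12 that also belonged to a neuronal list.

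Esf1, a nucleolar protein of ribosomal RNA processing, had 150 reads in 23 high-score wells against 45 in 8 low-score wells, a log2 ratio of 1.71, of 1.46 without a final G and of -0.22 in the wells with a final G. Bub3, a protein of the spindle assembly checkpoint, had 85 reads in 20 high-score wells against 24 in 6 low-score wells, a log2 ratio of 1.74 that was 1.51 without a final G and 1.27 in the wells with a final G. Rev1, a translesion DNA polymerase, had 86 reads in 16 high-score wells against 5 in 2 low-score wells. Nsmce4a, a subunit of the SMC5/6 complex of chromosome maintenance, had 61 reads in 16 high-score wells against 3 in 2 low-score wells. In the wells without a final G, Rev1 had 59 reads against 0 and Nsmce4a 27 against 0.

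Bpnt1, a nucleotidase of sulphur metabolism, had 120 reads in high-score wells against 15 in low-score wells, and without a final G 98 against 0, but its log2 ratio was -0.67 in the wells with a final G. Zdhhc2, a palmitoyltransferase, had 77 reads against 16, of which 13 came from 1 low-score well. Cstb (cystatin B, an inhibitor of cathepsins) had 138 against 23 reads in 23 and 10 wells, with a log2 ratio of 2.47, 3.51 without a final G and -1.56 in the wells with a final G.

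Uqcrfs1, the Rieske protein of respiratory complex III, had 200 reads in 22 high-score wells against 71 in 8 low-score wells, and a log2 ratio of 1.50. That ratio was 1.97 without a final G, -0.68 in the wells with a final G and -1.15 with the score taken as the number of score genes read. Zzz3, a histone-reading subunit of a chromatin complex, had 169 reads against 63, 52 of them in 1 low-score well. P4hb (protein disulphide isomerase) had 230 reads in 26 high-score wells against 88 in 13 low-score wells. Nme2, a nucleoside diphosphate kinase, had 261 reads against 124 and a log2 ratio of 1.10. P4hb and Nme2 were under 2-fold without a final G, at 0.93 and 0.06. All 12 genes were read in a larger share of wells with a final G than of the others, 10 of the 12 stayed 2-fold or more higher without those wells, and 7 of the 12 had the same direction within them. The other 5 were Esf1, Uqcrfs1, Bpnt1, P4hb and Cstb. The 12 genes were chosen over all wells, which include both kinds, so these counts are no separate support.

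On the lower side, Cfl1 (cofilin 1, which severs actin filaments) had 10 reads in 7 high-score wells against 64 in 18 low-score wells, with at most 2 reads in a high-score well and 12 in a low-score well. It was read in the most low-score wells of the 12. Its log2 ratio was -2.31, -1.27 without a final G and -0.67 in the wells with a final G. Jun, the AP-1 transcription factor, had 15 reads in 8 high-score wells against 98 in 12 low-score wells, 56 of them in 1 well, and log2 ratios of -2.44 in all wells, -1.86 without a final G and 1.36 in the wells with a final G.

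For 9 of the 12 lower genes a single low-score well held over 50% of the reads of its set. Vegfa, the vascular growth factor, had 38 reads in 4 high-score wells against 395 in 11 low-score wells, and 330 of the 395 came from a single well. Etaa1, an activator of the ATR kinase, had 7 reads against 108, of which 89 came from 1 well. Rbm34, an RNA-binding protein, had 7 reads against 92, of which 72 came from 1 well. Rce1, a protease of prenylated proteins, had 0 reads in high-score wells and 73 in low-score wells, at least 23.6-fold lower against a floor of 3 reads over the set, with 51 of the 73 in 1 well.

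Fzd6, a Wnt receptor, had 7 reads against 63, Pdia6, a disulphide isomerase, 4 against 68, and Snx2, a sorting nexin, 15 against 49. Eef1d, a subunit of the elongation factor 1 complex, had 21 reads against 59 and Fbxl14, an F-box protein, 2 against 68. Slc6a15, a transporter of neutral amino acids, had 13 against 62. Without a final G, 11 of the 12 were again 2-fold or more lower, while Fbxl14 had a log2 ratio of 0.55, and 7 of the 12 were read in a larger share of low-score wells. With only the wells of a final G, 7 of the 12 were lower. With the top well of each set left out, all 24 genes named by this rule stayed 2-fold or more apart, against 41.6% of all higher and 28.7% of all lower genes. The rule chose them in these same wells by the share of wells with a read. Neither this nor the counts by final base are therefore separate support.

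Neuronal genes outside the score showed no shift common to all their lists. Summed log2 ratios ran from -0.14 for secretory granule and neuropeptide genes to 0.85 for neuronal RNA-binding proteins. Of the secretory granule and neuropeptide list, 15 of 28 genes were in the data and 6 reached the level to be counted, 1 of them 2-fold or more higher and 1 lower. Bex1, a small neuronal adaptor protein, had 81 reads in 14 high-score wells against 7 in 3 low-score wells, with a log2 ratio of 3.09, 3.81 without a final G and -0.45 in the wells with a final G. Scg5, the chaperone 7B2 of prohormone convertase 2, went the other way, with 49 reads in 9 high-score wells against 247 in 12 low-score wells and log2 ratios of -2.22 and -3.93 without a final G. The list summed to 2155 CPM in high-score wells and 2378 CPM in low-score wells. Vgf, a granin-like peptide precursor, had 141 reads against 90, and Cpe (carboxypeptidase E) 124 against 132, a log2 ratio of -0.04.

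Chgb, the granin inside the score, is shown with its promoter because it was the score gene read in the most wells before thinning, 39 of 63. Of the 5 score genes, Chgb and Elavl2 matched a RefSeq promoter window by symbol (GRCm38.p6, 250 bases before to 50 after the start). The Chgb window, chr2:132781392-132781691 on the + strand, is printed with 2 motifs in capitals, the cyclic AMP response element TGACGTCA at position -72 and the E-box CAGCTG at position 31 relative to the start.
Chgb promoter: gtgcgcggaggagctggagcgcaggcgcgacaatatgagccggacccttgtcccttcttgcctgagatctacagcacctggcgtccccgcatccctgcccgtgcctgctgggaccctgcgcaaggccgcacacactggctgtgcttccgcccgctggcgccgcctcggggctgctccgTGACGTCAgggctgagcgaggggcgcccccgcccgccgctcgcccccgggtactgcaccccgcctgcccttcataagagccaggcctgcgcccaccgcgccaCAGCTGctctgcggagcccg

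Searched on both strands, where both motifs read the same, TGACGTCA occurs in 1.79% and CAGCTG in 16.3% of the 32851 RefSeq windows of 300 bases. The 2 motifs do not overlap. Elavl2 has 6 windows, of which 3 hold CAGCTG and 0 hold TGACGTCA. These matches describe letters of the windows only.

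Of the synaptic vesicle and exocytosis list, 3 of 43 genes could be counted, 0 of them 2-fold or more higher and 1 lower. The list summed to 1094 CPM in high-score wells and 1163 CPM in low-score wells. Without a final G, 2 of 3 counted genes were 2-fold or more higher and 1 lower. The list's summed log2 ratio was then 0.26, and -0.18 in the wells with a final G. Over 23 alternative settings it lay between -0.97 and 1.22, so its direction was not stable. Syt11 and Syt4, members of the synaptotagmin family of vesicle proteins, had log2 ratios of -0.22 and -1.04, and Gap43, a growth cone protein, had 91 reads against 67, of which 67 came from 1 high-score well. Of the transmitter synthesis and receptor list, 2 of 34 genes were counted, 1 of them 2-fold or more higher and 0 lower. The list summed to 919 CPM in high-score wells and 922 CPM in low-score wells. This near-even sum was not stable. Its log2 ratio was -0.86 without a final G and 0.49 in the wells with a final G. It was 1.99 in wells above the median of gene reads and -1.72 in wells at or below it.

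The neuronal cytoskeleton and axon list gave the most genes, 17 counted of 48, with 2 higher, 2 lower and 13 within 2-fold, a median log2 ratio of 0.10. It summed to 6687 CPM in high-score wells and 5850 CPM in low-score wells. Mtap1b, the microtubule-associated protein 1B of growing axons, had 368 reads in 25 high-score wells against 135 in 17 low-score wells, and its log2 ratio was 1.47, 3.38 without a final G and 1.70 in the wells with a final G. Marcks, described above, was the other higher gene. Mtap1b and Marcks were thus higher without a final G and with one, and over all wells, which hold both kinds. With the score taken as the number of score genes read, the log2 ratio of Marcks was -0.043.

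The 2 lower cytoskeletal genes were Mtap6 and Crmp1. Mtap6, a microtubule-stabilising protein, had 27 reads in 11 high-score wells against 158 in 6 low-score wells, 104 of them in 1 well. Crmp1, a collapsin response mediator, had 30 reads in 13 wells against 77 in 12 wells and a log2 ratio of -1.23. The tubulins were close to even in all wells, with log2 ratios of 0.10 for Tuba1a, 0.10 for Tubb3 and -0.37 for Tubb5, and 0.80 for Tuba1b. Stmn1, the paralogue of Stmn2 that is widely expressed, had 126 reads in 25 high-score wells against 74 in 12 low-score wells, a log2 ratio of 0.79. Without a final G, 7 of 17 counted genes of the list were 2-fold or more higher and 3 lower, with a median of 0.86, against 26.4% and 26% of all genes.

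Neuronal RNA-binding proteins summed to 1923 CPM in high-score wells and 1059 CPM in low-score wells, a log2 ratio of 0.85. Of the 4 counted genes 1 was 2-fold or more higher, and their median log2 ratio was 0.87. Without a final G the sums were 1720 and 790 CPM, and in the wells with a final G the summed log2 ratio was 0.088. Elavl1, the widely expressed paralogue of Elavl2, had 206 reads in 21 high-score wells against 118 in 13 low-score wells, with a log2 ratio of 0.83, 2.54 without a final G and 2.63 in the wells with a final G. Elavl4, a neuronal paralogue, had 84 reads in 14 wells against 45 in 6 wells, and its log2 ratio of 0.90 was 2.55 without a final G and -1.91 in the wells with a final G. Ptbp2, the neuronal splicing repressor, had 205 reads against 93 (1.16), but its ratio was -0.33 without a final G and -0.40 in the wells with a final G. Ptbp1, which neurons replace by Ptbp2, was even at 31 reads in high-score wells against 33 in low-score wells.

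Sympathoadrenal and neuroendocrine factors summed to 2658 CPM in high-score wells and 2238 CPM in low-score wells, with 1 of 8 counted genes higher and 0 lower. The median log2 ratio of the counted genes was 0.76, and 0.14 without a final G. Phox2a, a homeodomain factor of sympathetic neurons, had a log2 ratio of 0.78, and Gata2 had 0.91 both with all wells and without a final G. The gene past 2-fold, Pbx3, a homeodomain cofactor, had 66 reads in 5 high-score wells against 1 in low-score wells, 39 of them in 1 well. Myc, the growth-promoting transcription factor, had 188 reads in 24 high-score wells against 279 in 19 low-score wells, a log2 ratio of -0.52 that was 0.14 without a final G. Mycn, its neuroblastoma relative, was below the level to be counted, at 20 reads against 11.

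Genes of the Id and Notch list, whose Id proteins hold back differentiation by binding E proteins, summed to 968 CPM in high-score wells and 397 CPM in low-score wells, a log2 ratio of 1.26. Id1 had 67 reads in 16 high-score wells against 9 in 4 low-score wells, with log2 ratios of 2.57, 2.43 without a final G and 0.29 in the wells with a final G. Id4 had 63 reads against 31 (1.00) and Id3 86 against 61 (0.52). Of the 3 counted genes, 1 was called higher and 0 lower. Among the wells at or below the median of gene reads the list's log2 ratio was -0.47.

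Immediate early genes had the lowest summed ratio of the 22 lists. They summed to 894 CPM in high-score wells and 2088 CPM in low-score wells, a log2 ratio of -1.22, and 3 of 4 counted genes were 2-fold or more lower. Without a final G the sums were 670 and 2024 CPM and the log2 ratio -1.58, and in the wells with a final G it was -1.26. Single genes of the list differed in direction in the wells with a final G, as given below. Over 23 alternative settings the summed ratio lay between -1.58 and -0.18, the value nearest 0 being that with Stmn2 left out of the score. Per well, the list had a median of 9 reads (0 to 24) in high-score wells and 7 (0 to 150) in low-score wells, so the sets overlapped, and the highest values were in low-score wells.

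Dusp6, a phosphatase that ends ERK signalling, had 88 reads in 21 high-score wells against 312 in 14 low-score wells, 150 of them in 1 well, and log2 ratios of -1.74, -1.90 without a final G and -2.50 in the wells with a final G. Fos, the partner of Jun in AP-1, had 26 reads in 14 high-score wells against 142 in 7 low-score wells, with at most 4 reads in a high-score well and 54 in a low-score well. Fos was therefore read in more high-score wells but at lower levels, and its log2 ratio of -2.27 was 0.80 in the wells with a final G. Jun was also higher there, at 1.36, so the list's lower sum in those wells did not extend to all its genes. Dusp6 alone supplied 312 of the list's 668 reads in low-score wells. With the top well of each set left out, the log2 ratios were -1.15 for Dusp6, -1.82 for Fos and -1.75 for Jun. Ier5, the fourth counted gene, had 50 reads against 27.

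**Figure D4:**
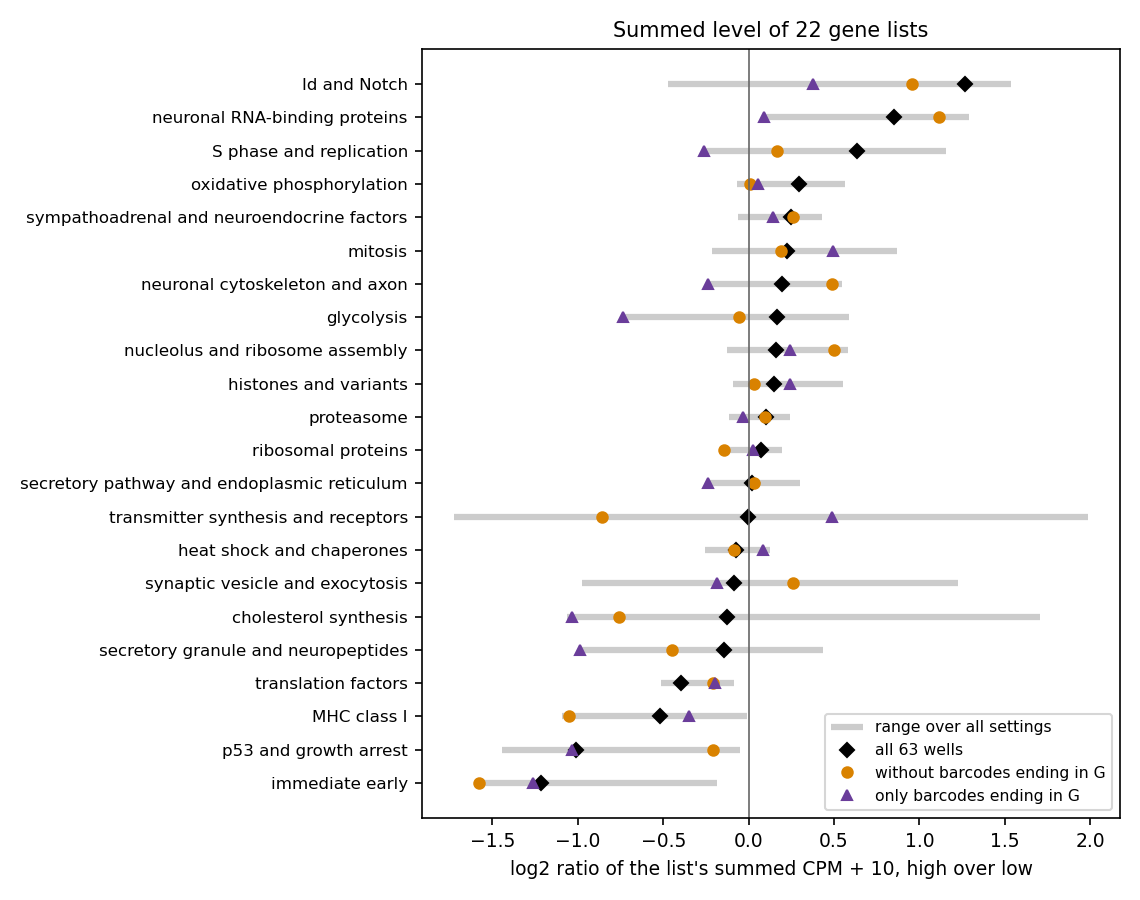
Log2 ratio of the summed CPM + 10 of 22 gene lists, high-score over low-score wells, for all 63 wells (diamonds), for wells without a final G (circles) and for wells with one (triangles), with grey bars for the range over all settings. Immediate early genes lie at -1.22, -1.58 and -1.26, Id and Notch genes at 1.26, 0.96 and 0.38, and many lists have bars on both sides of 0.

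Lists of dividing cells were mixed. Of 8 counted S phase genes 4 were higher and 2 lower, and the summed level was 2645 CPM in high-score wells and 1697 CPM in low-score wells, a log2 ratio of 0.64 that was 0.16 without a final G and -0.26 in the wells with a final G. Ccnd1 (cyclin D1) had 65 reads in 19 high-score wells against 12 in 7 low-score wells, a log2 ratio of 2.21 and 3.84 without a final G. Dnmt1, the maintenance DNA methyltransferase, had 58 reads in 13 wells against 6 in 4 wells. Hells, a chromatin helicase, went the other way with 9 reads against 132, of which 89 came from 1 low-score well, and Rrm2, a ribonucleotide reductase subunit, had 101 reads against 29, of which 85 came from 1 high-score well.

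Of 15 counted mitosis genes 4 were higher and 2 lower, with a summed log2 ratio of 0.22. Without a final G, 3 of 16 were higher and 5 lower, with a median log2 ratio of -0.41 and a summed one of 0.19. The summed log2 ratio was 0.49 in the wells with a final G. With Elavl2 or Stmn2 left out of the score it was -0.21 and -0.09. Birc5 (survivin) had 118 reads in 20 high-score wells against 19 in 7 low-score wells, a log2 ratio of 2.49, 2.87 without a final G and 0.95 in the wells with a final G. Mki67, the proliferation antigen, had 37 reads against 121, of which 82 came from 1 low-score well. Smc2, a condensin subunit, had 16 reads in 12 wells against 63 in 8 wells.

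Nucleolar and ribosome assembly genes included 4 higher and 1 lower of 15, with sums of 7639 CPM in high-score wells and 6822 CPM in low-score wells. Nip7, a factor of ribosome biogenesis, had 177 reads in 19 high-score wells against 11 in 7 low-score wells, with at most 29 reads in a high-score well and 4 in a low-score well. Its log2 ratio was 3.71, 4.46 without a final G, 2.45 in the wells with a final G and 3.95 without the top wells. Dkc1 (dyskerin) had 141 reads in 18 wells against 45 in 8 wells, and Pa2g4 58 in 20 wells against 20 in 7 wells, with log2 ratios of 1.63 and 1.44 that were 1.05 and 1.36 in the wells with a final G. Utp20, of the small-subunit processome, had 21 reads against 155, of which 107 came from 1 low-score well.

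Translation factors summed to 18432 CPM in high-score wells and 24209 CPM in low-score wells, a log2 ratio of -0.39. Of 23 counted genes, 0 were 2-fold or more higher and 4 lower, against 19.9% and 21.4% of all genes. Their median log2 ratio was -0.29. Without a final G, 2 of 23 were higher and 7 lower, against 26.4% and 26% of all genes. The summed log2 ratio was then -0.21, and -0.20 in the wells with a final G. Per well the list had a median of 184 reads (54 to 294) in high-score wells and 235.5 (81 to 446) in low-score wells, so the sets overlapped. Eif1a, an initiation factor, had 162 reads in 21 high-score wells against 381 in 23 low-score wells, a log2 ratio of -1.17 and -1.14 without a final G, and -0.10 in the wells with a final G. Tpt1, the translationally controlled tumour protein, had 396 reads in 30 wells against 740 in 31 wells, a log2 ratio of -0.85, and Eef1a1, the main elongation factor, 706 against 933 (-0.36). Ribosomal protein genes were near even, with 4 of 67 higher, 4 lower and a summed log2 ratio of 0.07. Ribosomal protein, tubulin, histone and elongation factor genes have near-identical copies in the genome, and how reads shared by such copies were counted is not stated, so their levels are uncertain.

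Of the nuclear genes of oxidative phosphorylation, 12 of 57 were higher and 5 lower, against 19.9% and 21.4% of all genes, with sums of 24497 CPM in high-score wells and 19959 CPM in low-score wells. The summed log2 ratio of 0.30 was 0.01 without a final G and 0.05 in the wells with a final G. Uqcrb and Ndufa11, subunits of complexes III and I, had 54 reads against 18 and 65 against 19. Over all wells, without a final G and with one, log2 ratios were 1.48, 1.32 and 1.09 for Uqcrb. For Ndufa11 they were 1.66, 3.76 and 1.09. Sdhd, a subunit of complex II, had 7 reads against 64, of which 46 came from 1 low-score well.

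In the secretory pathway list 7 of 33 genes were higher and 4 lower, and among heat shock genes and chaperones 4 of 20 and 5 of 20. Dnajb11, an endoplasmic reticulum cochaperone, had 101 reads in 12 high-score wells against 2 in 2 low-score wells, and Ddit3 (CHOP), a stress transcription factor, 69 in 16 wells against 18 in 5 wells. Arf4, a small GTPase of Golgi transport, had 130 reads against 515, of which 334 came from 1 low-score well. Bag3, a cochaperone, had 406 reads in 25 high-score wells against 146 in 15 low-score wells, a log2 ratio of 1.50, 1.69 without a final G and 0.63 in the wells with a final G. Dnaja1, another cochaperone, had 311 reads against 786, of which 268 came from 1 low-score well.

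MHC class I genes summed to 1568 CPM in high-score wells and 2253 CPM in low-score wells, with 0 of 4 counted genes past 2-fold either way. B2m (beta-2 microglobulin) had 141 reads in 19 wells against 293 in 20 wells, 120 of them in 1 low-score well, with log2 ratios of -0.99, -1.14 without a final G and -0.35 in the wells with a final G. The p53 list had 2 counted genes, of which Ccng1 (cyclin G1) had 21 reads against 100, 59 of these in 1 low-score well. Of 5 counted glycolysis genes 0 were past 2-fold, of 19 proteasome genes 3 were higher and 2 lower, and of 7 histone genes and variants 2 were higher and 0 lower. Of the 18 cholesterol synthesis genes in the data, 0 reached the level to be counted.

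Chgb, Snap25 and Insm1 lie on mouse chromosome 2, so levels were also set out by chromosome. The 149 counted genes of chromosome 2 had a median log2 ratio of 0.06, with 31 of them 2-fold or more higher and 29 lower. Over the chromosomes with at least 20 counted genes, medians ran from -0.38 on chromosome 17 to 0.23 on chromosome 13. The median of chromosome 2 lay inside that range.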

How the data were processed

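Single cells were profiled by tagged reverse transcription. The authors deposited raw hit counts per feature and barcode, per the labels, with Bowtie named by the submitters' processing notes. No source used here gives the genome build or annotation. Each deposited file had 116 barcode columns, 96 with reads. The Neuro2A plate had 3160286 gene reads; repeats (24.6% of its reads) and mitochondrial genes (12.9%) were left out. Neuro2A wells of at least 10000 gene reads were kept (11221 to 203348 reads) and thinned to 10000 reads without replacement. Genes with a mean of at least 100 CPM and reads in at least 5 wells were counted, and 2-fold or more was called. Named genes were the 12 each way with the largest difference in the share of wells with a read, and members of the lists. Doublets were not called, since sorted wells held 1 cell each. The members and lists were chosen with earlier results of these data known. Counts of 492 of 5533 genes (8.89%) were whole multiples of a number above 1, up to 9, and those of Elavl2 of 3 on all 5 plates; dividing them out, and leaving out the well of highest score, were alternatives chosen after seeing the data. Chromosomes came from RefSeq GRCm38.p6 by symbol for 90.5% of counted genes. Code was tested on simulated data with scipy 1.17.1, pandas 2.3.3 and numpy 2.4.6 under Python 3.11.15. Some listed genes are not reported here.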

Additional observations from a re-analysis of the deposited data

How the results depend on the processing

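Under 24 alternatives the counts of genes 2-fold or more apart stayed within 1.5 times the reported 478 and 515, except that without a filter on low values 2203 were higher and 1656 lower, that without the top well of each set per gene 158 were lower, and that with repeat and mitochondrial reads in the total 225 were higher. Without the top wells 67.6% of the calls were higher ones, and with repeats and mitochondrial reads 39.5%, against 48.1% as reported. These 2 settings moved the median log2 ratio of all genes to 0.27 and -0.11; fewer genes, 1405 and 1598, passed the filter under them, and the cause was not tested. Directions turned for these log2 ratios: P4hb (-0.10) with a score without Chgb; Fbxl14 with a score without Stmn2 (0.50), with score and levels from separate reads (1.19) and without a final G (0.55); Marcks (-0.043), Uqcrfs1 (-1.15) and Zzz3 (-0.53) with the score as the number of score genes read; Esf1 (-0.22), Uqcrfs1 (-0.68), Bpnt1 (-0.67), P4hb (-0.071), Cstb (-1.56), Vegfa (0.41), Jun (1.36) and Pdia6 (0.40) with only wells of a final G; Esf1 (-0.19), P4hb (-0.52) and Snx2 (0.083) in wells above the median of gene reads; and Id and Notch genes (-0.47), Zzz3 (-1.27) and Pdia6 (1.52) in wells at or below it. The filter on low values enters no list sum or single gene. In the other 23 alternatives the summed log2 ratios of the immediate early, p53, MHC class I and translation factor lists were below 0 and that of neuronal RNA-binding proteins above 0, but they came as near to 0 as -0.18 and -0.052 with a score without Stmn2 for the first 2 lists, -0.0074 without the top wells for MHC class I, -0.087 in wells at or below the median of gene reads for translation factors, and 0.088 in wells with a final G for the RNA-binding list. Another random thinning moved 4 of 46 values of lists and named genes beyond counting error, and leaving out the wells with a final G moved 27. No paired analysis was possible because a single Neuro2A plate was divided. At 10000 reads per well, 1 read is 100 CPM in a well, so a gene near the filter is mostly unread in single wells.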
